A study of Homo sapiens with 36 samples.

Results

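The comparison described here set 3 libraries of JVM2 cells exposed to 10 µM idelalisib for 72 h against 3 libraries of the same cells given the solvent dimethyl sulfoxide (DMSO) for 72 h. These are 6 of the 36 RNA sequencing libraries of the study, and they were chosen by their labels alone. JVM2 is an established B-cell line from a B-prolymphocytic leukaemia, transformed with Epstein-Barr virus and carrying the t(11;14) translocation that drives CCND1, so every library of either group shares these features. Idelalisib inhibits the delta isoform of the phosphoinositide 3-kinase (PI3K) catalytic subunit. The study exposed 3 B-cell lines to 3 anti-leukaemic drugs or DMSO, with 3 libraries a group. Other JVM2 groups were used for reference, 5 µM ibrutinib (a BTK inhibitor) and 50 µM fludarabine (a purine analogue), both for 72 h. The MEC1 line received 10 µM idelalisib or DMSO for 48 h and the EHEB line for 96 h. All 3 lines are laboratory lines, and the labels describe the libraries of a group as a triplicate. The study's methods speak of independent experiments in general, without naming the libraries, so the p-values below measure the spread between these libraries, which may be technical.

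In B cells the antigen receptor recruits PI3K delta, which makes the lipid that draws the kinases AKT and BTK to the membrane. AKT then keeps the FOXO transcription factors out of the nucleus and raises mTOR activity, and these steps feed glucose use, ribosome production and entry into the cell cycle. Idelalisib and ibrutinib therefore act on neighbouring steps of one pathway.

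The 6 libraries held between 35479702 and 50986778 counts, and 17508 of 37549 gene symbols had enough counts to be tested. The names of the libraries carry running numbers, 85 to 87 for DMSO and numbers above 200 for both kinase inhibitors. The labels do not say what these numbers mean, and libraries of near numbers are here termed a series. Library series and drug cannot be told apart in a comparison with DMSO, whereas idelalisib and ibrutinib lay within one series. The 10 B-cell line markers, among them MS4A1, CD79A, CD79B, PAX5, CD22, CD37, CD74, HLA-DRA and CCND1, were all tested and together reached 6592 to 7034 CPM (counts relative to the scaled total of their library) in the DMSO libraries and 5302 to 5423 in the idelalisib libraries. By the test described below, 2 of the 10 were higher with idelalisib and 4 lower. The largest parts of the sum were lower, HLA-DRA (values below) and CD74, at 1597 to 1688 CPM with DMSO and 1224 to 1265 CPM with idelalisib. MS4A1 went the other way, at 96.0 to 112 CPM with DMSO and 147 to 156 CPM with idelalisib. Of 14 T-cell markers, the 6 genes CD3D, CD3G, CD247, CD2, CD8A and CD8B were listed at 0 in all 6 libraries, and the list's sum of 58.1 to 62.2 CPM under DMSO and 42.4 to 48.1 CPM under idelalisib came mostly from TRAC, the constant segment of the T-cell receptor alpha chain, at 38.2 to 59.2 CPM. The 7 natural killer cell markers summed to 10.6 to 13.5 CPM and 6.64 to 10.4 CPM, with KLRF1 at 0. Of 10 myeloid markers LYZ, CSF3R, MPO and FCN1 were at 0, and the sum was 19.3 to 22.4 CPM under DMSO and 45.5 to 48.3 CPM under idelalisib, a difference made mostly by the integrin gene ITGAM (12.02, 9.45 and 10.3 CPM in the DMSO libraries and 35.1, 36.9 and 38.7 CPM in the idelalisib libraries). Of 10 epithelial and stromal markers COL1A2 and COL3A1 were at 0, and the sum was 114.4 to 126 CPM under DMSO and 115.1 to 119 CPM under idelalisib, the largest part being PDGFRB at 56.3 to 75.2 CPM. The part of these genes in the results was not tested.

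With idelalisib, 3779 genes (21.6% of those tested) were higher than with DMSO and 3960 genes (22.6%) were lower at an adjusted p below 0.05 in edgeR's quasi-likelihood test, here termed called. Of these, 1145 (6.54%) were at least 2-fold higher and 883 (5.04%) at least 2-fold lower. The CPM values of the 3 idelalisib and the 3 DMSO libraries did not overlap for 56.3% of the genes tested, and 51.1% had an unadjusted p below 0.05. The median log2 fold change of all genes tested was 0.026, and without TMM scaling, which corrects library sizes for a few very abundant genes, it was 0.13 and the split was 4651 higher and 3166 lower. Long noncoding RNA genes had 261 of 1335 higher and 115 lower (median 0.30), and of 113 small nucleolar RNA genes none was higher and 23 were lower (median -0.39). These shares and the median are the background for each gene list below, and each list is given by its counts and median.

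The following sets of promoter sequence are shown for lists with clear falls or rises. Motif shares were counted over all tested members of a list with a promoter, changed or not. They therefore describe the lists and not the effect of idelalisib. Promoters were taken from RefSeq on GRCh38.p14 as 300-base windows (250 bases before and 50 after the start) and read on both strands. The CHR element, TTTGAA, is a known site of cell cycle-dependent repression in mitotic genes. It stood in 30 of 44 promoters of the mitosis list (68.2%), against 10.6% of 12228 promoters of genes tested and 15.4% of all 27195 promoters. The CCAAT box, CCAAT, often lies next to it and stood in 33 of the 44 (75.0%), against 37.1% of promoters of genes tested. In these windows the capitals mark TTTGAA.
CDK1: tataataaaTTTGAActgtgccaa
PLK1: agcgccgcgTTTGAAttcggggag
KIF23: attggcccgTTTGAAatgcgccag
CDC20: cggttggatTTTGAAggagccaat
MKI67: tcgttttcgTTTGAAttgggcggg
They lie at chr10:60778161-60778184 (plus strand), chr16:23678851-23678874 (plus strand), chr15:69414285-69414308 (plus strand), chr1:43358907-43358930 (plus strand) and chr10:128126438-128126461 (minus strand).

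E2F factors bind the start regions of replication genes. An E2F site, searched as TTTCCCGC, TTTGGCGC, TTTCGCGC or TTTGCCGC, stood in 23 of 42 promoters of the DNA replication list (54.8%), against 5.08% of promoters of genes tested, whereas TTTGAA stood in 1 of the 42. In the CDT1 window the capitals are the reverse complement of TTTCCCGC.
CDT1: gggcgcccGCGGGAAAtttggcgg
DTL: gacgtcagTTTGGCGCggagtttg
CDC6: cattcggaTTTGGCGCgagcgcgg
Their positions are chr16:88803746-88803769 (plus strand), chr1:212035732-212035755 (plus strand) and chr17:40287878-40287901 (plus strand). Interferon-stimulated genes carry the response element ISRE, GAAA followed by any 2 bases and a second GAAA, which stood in 22 of 34 promoters of that list (64.7%), against 3.02% of promoters of genes tested. In the first and second of the following windows the capitals are its reverse complement.
IFIT1: tttccccTTTCGGTTTCcctaggt
IFIT3: aaattagTTTCACTTTCcagtttc
SAMD9: gagaaatGAAACTGAAAccaaacc
They lie at chr10:89392513-89392536 (plus strand), chr10:89327868-89327891 (plus strand) and chr7:93118099-93118122 (minus strand). The windows shown are of strongly changed genes. An E2F site also stood in the promoters of MCM3 (log2 fold change 0.91) and POLA1 (0.22), called higher. GINS3, POLA2, POLE2, UHRF1 and CLSPN, not called, carried it too, and its other carriers on the list were lower. An ISRE stood in the promoters of IFI44 (-0.46) and HERC5 (-0.20), called lower, and of IFI6, IFI27, IFITM1, IFITM3 and OAS3, not called. Its other carriers were higher. The searched motifs can overlap by a few letters in one promoter, and a match describes letters only.

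The genes of mitosis showed the largest median difference of the gene lists, and it was uniform. All 55 genes of the mitosis and G2/M list were tested, all 55 were lower with idelalisib, and their median log2 fold change was -2.20. Their counts made up 0.320 to 0.328% of each DMSO library, 0.190 to 0.203% of each ibrutinib library and 0.0711 to 0.0767% of each idelalisib library. NEK2, a centrosome kinase (chromosome 1, 211658657 to 211675630, GRCh38), was at 41.7, 42.6 and 47.8 CPM in the DMSO libraries and 3.61, 4.13 and 3.84 CPM in the idelalisib libraries. The groups stood far apart (log2 fold change -3.51, SE 0.11, adjusted p = 7.45e-09). CDK1, the kinase that starts mitosis (chromosome 10, 60778331 to 60794852), was at 62.6, 58.6 and 61.0 CPM in the DMSO libraries and 8.10, 7.41 and 7.26 CPM in the idelalisib libraries. No library of one group approached the other, and the ibrutinib libraries lay between them at 28.9, 28.6 and 28.3 CPM (log2 fold change -3.001, SE 0.077, adjusted p = 3.77e-09). UBE2C, a ubiquitin-conjugating enzyme that works with the anaphase-promoting complex, showed a log2 fold change of -3.10 and KIF2C, a kinesin that depolymerises microtubules at centromeres, -3.14. KIF20A and KIF23, kinesins of the midzone and the dividing cell's bridge, showed -2.90 and -2.80. MKI67, which codes for the proliferation marker Ki-67, was at 239.1, 249.9 and 258 CPM in the DMSO libraries and 48.7, 59.7 and 56.6 CPM in the idelalisib libraries, and here too the groups were separate (log2 fold change -2.18). Outside the list, PRR11, GAS2L3 and CKAP2L, which also act in division, were among the 15 protein-coding genes with the largest falls, at -3.11, -3.01 and -3.08. The near-identical FAM72B, FAM72C and FAM72D fell by 3.01, 3.84 and 3.58 on the log2 scale, and their reads cannot be told apart with certainty. In a bulk sample, fewer dividing cells and less RNA per cell cannot be told apart.

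The tubulins, the building blocks of the spindle, differed less than the mitosis list. TUBB, a beta-tubulin, was at 1198, 1309 and 1328 CPM in the DMSO libraries and 508, 525 and 523 CPM in the idelalisib libraries, and TUBA1B, an alpha-tubulin, at 466, 467 and 499 CPM in the DMSO libraries and 167, 169 and 187 CPM in the idelalisib libraries. Both pairs of groups were separate (log2 fold changes -1.302 and -1.45). Across families, 19 of 33 kinesin genes were lower and 8 higher (median -0.36), and 10 of 28 tubulin genes were lower and 5 higher (median -0.022). TUBB shares reads with processed copies such as TUBBP1 (-1.72), so its exact size is uncertain.

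DNA replication genes were lower in a less uniform way. Of 50 tested, 35 were lower and 3 were higher, with a median of -0.61. CDT1, which loads the replicative helicase (chromosome 16, 88803789 to 88809258), was at 73.6, 68.4 and 70.6 CPM in the DMSO libraries and 10.996, 13.2 and 13.8 CPM in the idelalisib libraries, with no overlap (log2 fold change -2.48, SE 0.14, adjusted p = 2.18e-07). ORC1, the largest subunit of the origin recognition complex, was at 23.5, 25.0 and 27.5 CPM in the DMSO libraries and 4.57, 4.27 and 4.23 CPM in the idelalisib libraries, and DTL, which directs the destruction of CDT1, at 67.8, 58.9 and 59.5 CPM in the DMSO libraries and 14.8, 15.4 and 17.1 CPM in the idelalisib libraries. Both fell (-2.54 and -1.98 on the log2 scale). RRM2, the small subunit of ribonucleotide reductase, fell by 1.95 on the log2 scale, with idelalisib values of 31.7, 16.8 and 35.7 CPM that varied among themselves. The helicase subunit MCM3 went the other way, at 48.1, 33.7 and 45.2 CPM in the DMSO libraries and 77.1, 77.9 and 84.4 CPM in the idelalisib libraries, higher in every idelalisib library (log2 fold change 0.91, SE 0.11, adjusted p = 6.90e-05). MCM5 and POLA1, a helicase subunit and the primase-bound polymerase, were called higher by only 0.18 and 0.22, and lost the call in 5 and 7 of 15 alternative settings, MCM5 without DMSO library 86 or 87 or the second or the third idelalisib library (0.15 to 0.18) and POLA1 without any 1 library other than DMSO library 86 (0.17 to 0.23).

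The histone genes, which are transcribed mainly in S phase, were mostly lower as well. Of 70 tested genes with HIST symbols, 58 were lower and 1 was higher (median -1.40), and a further 16 of the 86 in the file had too few counts to test. HIST1H3B, a histone H3 gene (chromosome 6, 26031589 to 26032099), was at 329.6, 331 and 342 CPM in the DMSO libraries and 57.6, 61.5 and 64.5 CPM in the idelalisib libraries. The groups were far apart and each was tight (log2 fold change -2.45, SE 0.066, adjusted p = 4.38e-09). HIST1H2BJ and HIST1H3G were lower by similar amounts, -2.35 and -2.33. The HIST1H2AD libraries were more variable, at 49.5, 35.9 and 56.3 CPM in the DMSO libraries and 9.51, 7.41 and 3.51 CPM in the idelalisib libraries. The exception was HIST1H2AC, whose message can be polyadenylated, at 13.9, 17.5 and 11.9 CPM in the DMSO libraries and 30.3, 32.6 and 33.6 CPM in the idelalisib libraries (log2 fold change 1.16), a call lost in 3 of 15 alternative settings, among them without DMSO library 85 or 87. Histone genes lie in clusters of close copies, and reads may be split among them.

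Among cyclins, CDK4/6 and CDK inhibitors, 11 of 19 were lower and 3 were higher (median -0.46). CDKN3, a phosphatase acting on CDK1 and CDK2 that peaks in mitosis, was at 18.8, 15.5 and 18.1 CPM in the DMSO libraries and 2.098, 2.25 and 2.17 CPM in the idelalisib libraries, the largest fall of the list (-3.004). The CDK4/6 inhibitors CDKN2C and CDKN2D fell by 1.80 and 1.20 on the log2 scale. CDKN1B, the p27 inhibitor of CDK2 and a classical FOXO target, was at 163, 175 and 177 CPM in the DMSO libraries and 130.4, 123 and 120.4 CPM in the idelalisib libraries and was lower (log2 fold change -0.46, SE 0.062, adjusted p = 1.36e-04). CDK6 and RB1, the kinase and the pocket protein of the G1 checkpoint, were higher by 0.36 and 0.62. CCND1, the translocated cyclin of this line, was at 985, 931 and 950.2 CPM in the DMSO libraries and 862, 875 and 876 CPM in the idelalisib libraries. Its groups did not overlap, but the difference was small (log2 fold change -0.13, SE 0.049, adjusted p = 0.0453) and fell short of the threshold in 11 of 15 alternative settings.

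In the DNA damage list 18 of 37 genes were lower and 7 higher (median -0.17). The lower members included POLQ, a polymerase of end joining (-1.82), the nuclease EXO1 (-1.72) and the homologous recombination factors RAD51AP1 (-1.48) and RAD54L (-1.38). The higher members included TP53BP1, which directs breaks to end joining, at 76.1, 69.8 and 74.4 CPM in the DMSO libraries and 137, 141 and 122 CPM in the idelalisib libraries, without overlap (0.86). The end-joining kinase PRKDC (0.63), its partner ligase LIG4 (0.49) and the checkpoint kinase ATR (0.47) were higher as well.

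Some genes known for their part in stress responses were lower with idelalisib. They are given as single genes without a list share, and in the ATF4 list of stress genes below 17 of 34 were higher and 8 lower. GDF15, a stress cytokine (chromosome 19, 18374731 to 18389176), was at 35.6, 46.2 and 41.2 CPM in the DMSO libraries and 2.74, 3.04 and 2.50 CPM in the idelalisib libraries. Every DMSO library exceeded every idelalisib library by more than 10-fold (log2 fold change -3.89, SE 0.13, adjusted p = 8.98e-09), and the ibrutinib libraries were at 6.30, 5.76 and 5.11 CPM. SESN1, a sestrin that restrains mTOR, was at 26.5, 28.6 and 30.5 CPM in the DMSO libraries and 9.48, 9.83 and 9.10 CPM in the idelalisib libraries and fell (-1.59). PLK3, a stress kinase, and CMBL, a hydrolase, fell by 1.36 and 2.48 on the log2 scale. CDKN1A, which codes for p21, was at 489, 503 and 503 CPM in the DMSO libraries and 388, 399 and 387 CPM in the idelalisib libraries. These groups did not overlap, yet the gene missed the threshold (adjusted p = 0.380) in the fit on all 12 JVM2 libraries and passed it in a fit on the 6 libraries compared (adjusted p = 0.000309). 

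**Figure D1:**
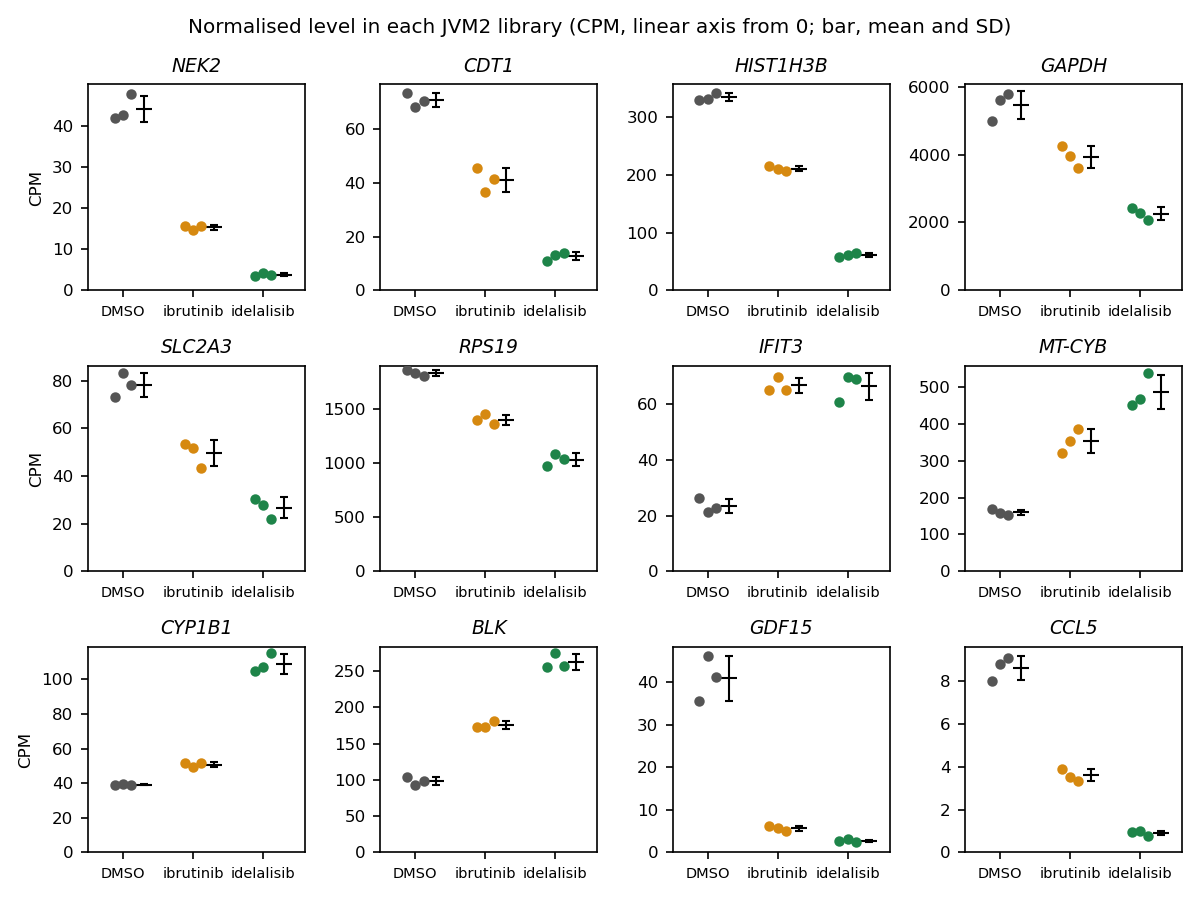
CPM (linear axis from 0) of 12 genes in each of 3 DMSO, 3 ibrutinib and 3 idelalisib libraries of JVM2 (points), with the mean and SD of each group beside them. NEK2, CDT1, HIST1H3B, GAPDH and SLC2A3 step down from DMSO over ibrutinib to idelalisib, the IFIT3 values of both kinase inhibitors overlap above DMSO, and CYP1B1 is raised with idelalisib (105 to 115 CPM) far above ibrutinib and DMSO.

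Most glycolysis genes were lower. Of 24 tested glycolysis genes 16 were lower and 1 was higher (median -0.54), and their share of all counts went from 1.298 to 1.368% with DMSO to 0.706 to 0.848% with idelalisib. SLC2A3, a glucose transporter, was at 73.1, 83.3 and 78.3 CPM in the DMSO libraries and 30.4, 27.96 and 21.9 CPM in the idelalisib libraries. GAPDH, often used as a reference gene, was at 4989.5, 5609 and 5774 CPM in the DMSO libraries and 2439.9, 2276 and 2064 CPM in the idelalisib libraries. Neither gene's groups overlapped (log2 fold changes -1.55 and -1.27). ENO2, the neuronal enolase, was at 284, 318 and 320.5 CPM in the DMSO libraries and 127, 108 and 87.4 CPM in the idelalisib libraries (log2 fold change -1.52, SE 0.14, adjusted p = 9.41e-06). HK2, which traps glucose as its phosphate, fell by 1.23 on the log2 scale, with a spread of 109.8, 90.1 and 55.2 CPM among the idelalisib libraries. PFKFB2, which makes the activator of phosphofructokinase, was the member that rose (0.40, adjusted p = 0.0128, lost when DMSO library 87 was left out).

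Of 20 genes known to respond to hypoxia 11 were lower and none higher (median -0.40). P4HA1, a collagen prolyl hydroxylase, was at 472, 504 and 513 CPM in the DMSO libraries and 154, 132 and 110.3 CPM in the idelalisib libraries, wide apart (log2 fold change -1.91, SE 0.14, adjusted p = 1.68e-06). ADM and MXI1, a vasoactive peptide and a MYC antagonist, fell by 1.91 and 1.59 on the log2 scale. EPAS1, which codes for the oxygen-sensing factor HIF-2 alpha, was at 4.29, 5.29 and 4.61 CPM in the DMSO libraries and 1.91, 1.59 and 1.32 CPM in the idelalisib libraries (-1.56). The core hypoxia-response letters ACGTG stood in 8 of 21 glycolysis promoters (38.1%) and 7 of 16 hypoxia promoters (43.8%), against 25.8% of promoters of genes tested, and also in 18 of the 44 mitosis promoters (40.9%) and 20 of 63 ribosomal protein promoters (31.7%).

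Nucleotide synthesis and the pentose phosphate pathway split. In the purine and pyrimidine list 9 of 23 genes were lower and 3 higher (median -0.14). IMPDH2, the first step to guanine nucleotides, was at 145, 163 and 163 CPM in the DMSO libraries and 62.4, 59.0 and 59.5 CPM in the idelalisib libraries, clearly lower (-1.38), and the purine enzymes PAICS and PPAT fell by 0.83 and 0.72 on the log2 scale. CAD, which opens pyrimidine synthesis, and PFAS were higher by 0.46 and 0.37. In the pentose phosphate and NRF2 list 6 of 20 were lower and 5 higher (median -0.14). Transketolase TKT was at 213, 255 and 249.8 CPM in the DMSO libraries and 92.1, 106 and 105 CPM in the idelalisib libraries, and the ferritin chains FTL and FTH1 were also lower (-1.25, -0.82 and -0.82). SLC7A11, the cystine transporter, was at 24.9, 23.7 and 12.7 CPM in the DMSO libraries and 37.8, 36.3 and 41.0 CPM in the idelalisib libraries and rose (0.91).

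Lipid genes moved in both directions. Of 23 fatty acid synthesis genes 9 were lower and 2 higher (median -0.15). SCD, the desaturase that makes oleate, was at 302, 315 and 307 CPM in the DMSO libraries and 137, 128 and 119 CPM in the idelalisib libraries, with the groups apart (log2 fold change -1.26, SE 0.071, adjusted p = 2.38e-07), and SREBF1, the regulator of this set, fell by 1.20 on the log2 scale. FASN, fatty acid synthase, was at 238.5, 225 and 224 CPM in the DMSO libraries and 154, 175 and 177 CPM in the idelalisib libraries, lower without overlap (-0.44), while the elongase ELOVL6 rose (0.51). Of 27 cholesterol genes 10 were lower and 4 higher (median -0.14). Fatty acid oxidation was evenly divided, 6 of 18 higher and 6 lower (median 0.043), and the rises included the gatekeeper transferases CPT1A (1.20) and CPT1B (1.31), with CPT1A at 10.96, 14.1 and 11.9 CPM in the DMSO libraries and 25.3, 30.8 and 28.8 CPM in the idelalisib libraries.

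Genes for cytosolic ribosomal proteins were lower almost throughout. Of 79 tested, 70 were lower and none was higher (median -0.49), and they made up 6.72 to 7.03% of counts with DMSO, 5.66 to 6.10% with ibrutinib and 5.07 to 5.34% with idelalisib. RPS19 was at 1854, 1834 and 1806 CPM in the DMSO libraries and 969, 1088 and 1037 CPM in the idelalisib libraries. The groups were separate and tight (log2 fold change -0.83, SE 0.067, adjusted p = 3.43e-06). RPS21 fell by 1.01 on the log2 scale, among the larger falls of the list. RPL29, with the largest, was at 843, 886 and 194 CPM in the DMSO libraries and 101, 113 and 80.7 CPM in the idelalisib libraries, so DMSO library 87 stood apart from the other two, and RPL21 was also variable. Both have many processed copies, and their values are uncertain. In the translation factor list 22 of 38 genes were lower and 3 higher (median -0.29), among them the helicase EIF4A1 (-0.83) and the elongation factor EEF1A1 (-0.49, with its copy EEF1A1P5 at -0.56). Mitochondrial ribosomal protein genes had 35 of 78 lower and 3 higher (median -0.29).

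Ribosome biogenesis genes divided, 14 of 40 lower and 8 higher (median 0.039). The abundant nucleolar proteins NPM1, at 1200.5, 1260.2 and 1374 CPM in the DMSO libraries and 628, 603 and 568 CPM in the idelalisib libraries, and FBL, the methyltransferase fibrillarin, fell (-1.09 and -0.82). UBTF, which opens ribosomal DNA to polymerase I, was at 54.8, 58.2 and 61.0 CPM in the DMSO libraries and 101, 106 and 98.8 CPM in the idelalisib libraries and rose (log2 fold change 0.81, SE 0.066, adjusted p = 3.16e-06), as did UTP20, a long scaffold of the processome (0.95). MYC itself was at 86.01, 106 and 9.67 CPM in the DMSO libraries and 59.4, 38.1 and 26.8 CPM in the idelalisib libraries. DMSO library 87 was far below the other two, the groups overlapped, and the gene was not called (adjusted p = 0.407). Without that library the log2 fold change was -1.22 (adjusted p = 0.0163). Its partner MAX was higher (1.02). Of 20 long noncoding hosts of small nucleolar RNAs, which respond to translation, 10 were lower and 1 higher (median -0.48), with SNHG1 at -1.54 and SNHG8 at -1.34.

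Gene length, taken as the bases covered by all annotated exons of a gene, moved with the result. Among protein-coding genes, 13.9% of the shortest 25% (annotated length up to 3294 bases) were higher and 30.1% lower, with a median of -0.12, against 33.6% higher and 18.5% lower in the longest 25%, with a median of 0.13. The median annotated length of the ribosomal protein genes was 3188 bases that of the mitosis genes 3932 bases and that of the translation factors 5564 bases. The part of gene length in these results was not tested.

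The respiratory chain divided by genome. Of 77 nuclear-encoded subunits 35 were lower and none higher (median -0.24). All 13 mitochondrially encoded protein genes were higher (median 1.13), as were 15 of 20 mitochondrial transfer RNA genes (median 0.95) and 2 of 2 mitochondrial ribosomal RNA genes (median 1.75). MT-CYB, cytochrome b of complex III, was at 168, 157 and 153 CPM in the DMSO libraries and 451, 468 and 538 CPM in the idelalisib libraries. The groups were separate by more than 2-fold (log2 fold change 1.605, SE 0.14, adjusted p = 5.76e-06), and MT-CO1, a core subunit of complex IV, was at 3262, 3124 and 2943 CPM in the DMSO libraries and 5644, 5413 and 6251 CPM in the idelalisib libraries (0.89). Among nuclear subunits COX8A (-0.84) and UQCRFS1, the Rieske protein (-0.75), fell. Mitochondrially encoded counts were 0.411 to 0.459% of the DMSO libraries, 0.669 to 0.816% of the ibrutinib libraries and 0.869 to 1.007% of the idelalisib libraries. A raised mitochondrial share can also accompany a difference in RNA preparation, and its part was not tested.

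The drug's own pathway showed moderate differences. Of 40 PI3K, AKT and mTOR genes 18 were higher and 10 lower (median 0.088). Levels per kilobase were taken over all annotated exons of a gene joined, not over a single transcript. By this measure the delta subunit PIK3CD had the highest level of the catalytic subunits. It was at 26.2 ± 2.24 CPM per kb with DMSO and 31.2 ± 1.35 with idelalisib (SD, n = 3). PIK3CA followed at 14.2 ± 0.372 and 16.4 ± 0.533. PIK3CB stood at 8.11 ± 0.556 and 7.94 ± 0.465, and PIK3CG, the gamma subunit, at 1.44 ± 0.155 and 3.74 ± 0.247. Thus, by this measure, the target of the drug was the most expressed catalytic subunit and the least expressed one differed the most. PIK3CG was at 11.96, 11.7 and 9.78 CPM in the DMSO libraries and 27.9, 27.9 and 31.2 CPM in the idelalisib libraries, without overlap (log2 fold change 1.38, SE 0.13, adjusted p = 1.11e-05). PIK3CD was higher by a log2 fold change of 0.25 (adjusted p = 0.00574) and PIK3CA by 0.21. PIK3CB (-0.030), the regulatory subunit PIK3R1 (-0.22) and the inhibitor PIK3IP1 (-0.33) were not called.

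Negative regulators stood on both sides. INPP5D, the SHIP1 phosphatase that removes the PI3K product, was at 139.6, 109 and 107 CPM in the DMSO libraries and 195, 210.2 and 202 CPM in the idelalisib libraries, higher in each idelalisib library (0.77), and TSC2, which restrains mTOR, was at 45.0, 42.0 and 40.8 CPM in the DMSO libraries and 75.5, 74.4 and 82.6 CPM in the idelalisib libraries (log2 fold change 0.86, SE 0.079, adjusted p = 8.43e-06). PHLPP1, a phosphatase of AKT, fell (-0.72), as did EIF4EBP1, the translation brake that mTOR phosphorylates (-0.79). PDPK1, which phosphorylates AKT, was called higher (0.78), although DMSO library 87, at 86.7 CPM, was well above the other two DMSO libraries. The call was lost in 5 of 15 alternative settings, among them without DMSO library 85 or 86 or the first or the third idelalisib library (0.62 to 0.79).

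FOXO-regulated genes did not move as a block. Of 33 tested, 6 were higher and 8 lower, and the median was -0.045, or 0.056 without TMM scaling. KLF2, a quiescence and homing factor, was at 0.852, 0.885 and 1.32 CPM in the DMSO libraries and 4.41, 5.14 and 5.04 CPM in the idelalisib libraries, low in all 6 libraries but separate (log2 fold change 2.25, SE 0.22, adjusted p = 1.17e-05). IGF1R and the antioxidant enzyme CAT rose by 1.76 and 0.78. By contrast TXNIP, which limits glucose uptake, was at 170.4, 183.7 and 179.9 CPM in the DMSO libraries and 113, 106 and 93.3 CPM in the idelalisib libraries, lower without overlap (-0.78), and GADD45A and CCNG2, arrest genes, fell by 0.96 and 0.61 on the log2 scale, CCNG2 with its call lost without DMSO library 85 or the second idelalisib library (-0.47 and -0.53). The factors themselves, FOXO1 (-0.071) and FOXO3 (-0.096), were not called. S1PR1, a homing receptor, was at 61.6, 24.9 and 29.0 CPM in the DMSO libraries and 47.3, 39.6 and 47.9 CPM in the idelalisib libraries and was not called either. CXCR4 and the germinal centre repressor BCL6 stayed below 1 CPM in all 6 libraries.

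The B-cell receptor list was balanced, 11 of 37 higher and 10 lower (median 0.086). BLK, a SRC-family kinase of the receptor, was at 103, 93.3 and 98.5 CPM in the DMSO libraries and 256, 275 and 257 CPM in the idelalisib libraries, and RASGRP3, which couples it to RAS, at 198, 197 and 190.8 CPM in the DMSO libraries and 462, 475 and 501 CPM in the idelalisib libraries. Both rose (1.42 and 1.298). SH3BP5, an inhibitor of BTK, was the member with the largest rise, at 1.79, 1.58 and 1.21 CPM in the DMSO libraries and 11.7, 10.4 and 14.7 CPM in the idelalisib libraries (3.01). The phosphatase PTPN6 (-0.86) and the GTPase RAC2 (-0.84) fell. BTK was at 75.3, 64.7 and 77.2 CPM in the DMSO libraries and 63.1, 60.4 and 63.1 CPM in the idelalisib libraries, a small difference (-0.22, adjusted p = 0.0190). Its call was lost in 8 of 15 alternative settings. Among them were the fit without TMM scaling (-0.12) and the fit on the 6 libraries compared (-0.21). It was also lost without DMSO library 85 or 87 or the first or the second idelalisib library (-0.22 to -0.17).

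Genes switched on by receptor signalling within minutes were more often lower than higher. Of 22 immediate early genes 13 were lower and 1 higher (median -0.70), and of 16 ERK feedback genes 11 were lower and none higher (median -0.37). ETV5, an ETS factor induced by ERK, was at 36.1, 40.1 and 37.4 CPM in the DMSO libraries and 10.7, 9.27 and 10.6 CPM in the idelalisib libraries, about 4-fold lower (log2 fold change -1.90, SE 0.087, adjusted p = 6.43e-08). DUSP2, a phosphatase of ERK, was at 464, 457 and 456 CPM in the DMSO libraries and 167, 162 and 151 CPM in the idelalisib libraries, also without overlap (-1.52). EGR3, FOSL1, FOSL2 and NR4A1, activation-induced factors, fell by 2.32, 1.94, 2.32 and 1.85 on the log2 scale from low levels, such as 2.82, 2.39 and 1.97 CPM for EGR3 with DMSO. JUN was the member called higher, by 0.15, a call lost in 6 of 15 alternative settings, among them without any 1 of the DMSO libraries or the third idelalisib library (0.12 to 0.16). PIM3, a growth kinase of the JAK-STAT list, was at 163, 188 and 185.02 CPM in the DMSO libraries and 73.3, 69.8 and 62.8 CPM in the idelalisib libraries (-1.38). NF-kB genes were divided, 8 of 24 higher and 5 lower (median 0.078). TRAF1, CFLAR and CD83, targets that favour survival or mark activation, rose (0.78, 0.91 and 1.27), and the inhibitors NFKBIE and NFKBID fell (-0.60 and -0.56).

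Regulators of B-cell identity rose more often than they fell, 12 of 25 against 4 (median 0.33). BACH2, a repressor of plasma-cell fate, was at 3.67, 1.75 and 2.91 CPM in the DMSO libraries and 10.9, 12.1 and 9.37 CPM in the idelalisib libraries, and FOXP1, a mature B-cell factor, at 0.176, 0.287 and 0.358 CPM in the DMSO libraries and 3.37, 2.73 and 3.65 CPM in the idelalisib libraries. Both were separate from DMSO (1.96 and 3.53). IRF4, at 1858, 1873 and 1863 CPM in the DMSO libraries and 2656, 2652 and 2683 CPM in the idelalisib libraries, and PRDM1, at 52.5, 58.5 and 51.2 CPM in the DMSO libraries and 72.3, 70.2 and 76.7 CPM in the idelalisib libraries, factors that drive plasma-cell formation, were also higher (0.51 and 0.43). SPIB and ID3 fell (-1.39 and -0.92), with SPIB spread over 24.1, 79.7 and 41.8 CPM in the DMSO libraries. MIR155HG, host of the B-cell microRNA miR-155, was at 96.2, 84.1 and 86.8 CPM in the DMSO libraries and 319, 327 and 343 CPM in the idelalisib libraries and rose (log2 fold change 1.89, SE 0.088, adjusted p = 7.14e-08).

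Of 12 immunoglobulin constant and J chain genes 5 were higher and 2 lower (median 0.98), and of 24 variable genes 6 were higher and 5 lower (median 0.15). IGLC2 was at 491, 457 and 482 CPM in the DMSO libraries and 1063, 1182 and 1204 CPM in the idelalisib libraries, a second lambda constant gene IGLC3 at 109.6, 107 and 113 CPM in the DMSO libraries and 255, 273 and 262 CPM in the idelalisib libraries and the variable gene IGLV2-14 at 667, 671 and 697 CPM in the DMSO libraries and 1610.2, 1726 and 1744 CPM in the idelalisib libraries. All 3 were more than 2-fold higher with no overlap (1.27, 1.26 and 1.32). The kappa constant gene IGKC was at 281.4, 309.9 and 335 CPM in the DMSO libraries and 184.7, 175 and 173 CPM in the idelalisib libraries, lower (-0.80), and the mu heavy chain IGHM was called higher by 0.34, a call lost in the fit on all 36 libraries. Immunoglobulin segments share sequence, and the split of reads among lambda genes is uncertain.

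Genes of MHC class II were mostly lower. Of 20 MHC class II genes 13 were lower and 2 higher (median -0.42). HLA-DRA was at 2629, 2826 and 2989 CPM in the DMSO libraries and 1790.3, 1709.7 and 1685 CPM in the idelalisib libraries, and IFI30, the reductase that unfolds antigens, at 120.5, 132 and 134.8 CPM in the DMSO libraries and 48.6, 46.7 and 50.5 CPM in the idelalisib libraries. Both fell without overlap (-0.70 and -1.41). HLA-DQB2 was lower as well (-1.604), and the class II transactivator CIITA, at 85.3, 83.5 and 76.2 CPM in the DMSO libraries and 124, 127 and 111 CPM in the idelalisib libraries, was higher (0.56). In class I, 7 of 22 were lower and 5 higher (median -0.19), shares close to those of all genes, with HLA-E at -0.72 and the immunoproteasome subunit PSMB8 at -0.67. HLA genes are polymorphic and alike, which adds uncertainty to each.

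Among 29 chemokine and cytokine genes 15 were lower and 7 higher (median -0.47). CCL5 was at 7.99, 8.83 and 9.09 CPM in the DMSO libraries and 0.956, 0.990 and 0.776 CPM in the idelalisib libraries, the largest fall of the list (log2 fold change -3.25, SE 0.23, adjusted p = 1.10e-06). CCL3 was at 356, 358 and 356 CPM in the DMSO libraries and 219, 220.4 and 231 CPM in the idelalisib libraries and CCL4 at 51.8, 50.6 and 51.8 CPM in the DMSO libraries and 34.5, 38.7 and 38.1 CPM in the idelalisib libraries. These chemokines, which B cells release on receptor activation to draw T cells, were lower without overlap (-0.67 and -0.47), as was the T-cell costimulator TNFSF9 (-0.86). IL12B, LTB and CXCL10 rose from low levels by 2.93, 1.49 and 2.598, the last with a DMSO library at 1.20 CPM against 0.353 and 0.358 in the other two. Without that library the CXCL10 value was 3.44. Among surface receptors CD48, a ligand of natural killer cells, was at 994, 1067 and 1102 CPM in the DMSO libraries and 522, 504 and 478 CPM in the idelalisib libraries (-1.07), and IL10RA and IL2RA rose (1.16 and 0.91). Of 23 homing and adhesion genes 5 were higher and 7 lower (median -0.043), with ITGB2, the common chain of leukocyte integrins, at -0.75 and CXCR5, the follicle-homing receptor, at -0.32, a call lost without TMM scaling and in the fit on all 36 libraries.

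Most interferon-stimulated genes were higher. Of 44 tested, 31 were higher and 4 lower (median 0.70), and their share of counts was 0.392 to 0.425% with DMSO and 0.632 to 0.694% with idelalisib. IFIT3 (chromosome 10, 89327307 to 89377473), whose product binds to the antiviral IFIT complex, was at 26.2, 21.3 and 22.8 CPM in the DMSO libraries and 60.7, 69.4 and 68.8 CPM in the idelalisib libraries. The lowest idelalisib library was more than 2-fold above the highest DMSO library (log2 fold change 1.502, SE 0.083, adjusted p = 2.17e-07). SAMD9, an antiviral factor, was at 55.2, 48.1 and 49.9 CPM in the DMSO libraries and 136, 142.1 and 152 CPM in the idelalisib libraries, and XAF1, a pro-apoptotic interferon target, at 6.73, 5.88 and 5.26 CPM in the DMSO libraries and 31.0, 21.9 and 23.5 CPM in the idelalisib libraries. They rose by 1.49 and 2.096, and USP18, which limits interferon signalling, by 1.41. GBP2, a guanylate-binding protein induced by interferon gamma, was at 115, 122 and 128 CPM in the DMSO libraries and 59.8, 63.9 and 60.3 CPM in the idelalisib libraries, lower by as clear a margin (log2 fold change -0.99, SE 0.076, adjusted p = 2.18e-06), and IFI44 and IFITM2 fell by 0.46 and 0.62 on the log2 scale. In the JAK-STAT list 6 of 21 genes were higher and 9 lower (median -0.23), and its members STAT3 and JAK1 rose by 0.70 and 0.63.

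The ATF4 list of amino acid and stress genes had 17 of 34 higher and 8 lower (median 0.25). ALDH1L2, a mitochondrial folate enzyme, was at 11.6, 8.63 and 10.2 CPM in the DMSO libraries and 26.7, 25.3 and 26.7 CPM in the idelalisib libraries, and SLC1A4, a neutral amino acid transporter, at 67.6, 71.6 and 71.5 CPM in the DMSO libraries and 134.9, 132 and 136 CPM in the idelalisib libraries. Both rose (1.37 and 0.94), as did the glutathione-degrading CHAC1 (1.15) and CBS (1.37). DDIT4, the mTOR inhibitor REDD1, was at 181, 205 and 201 CPM in the DMSO libraries and 125, 113 and 83.1 CPM in the idelalisib libraries, lower (-0.87), and DDIT3, the stress factor CHOP, fell (-0.99), with its call lost without DMSO library 86 or the second idelalisib library (-0.85 and -0.75). Asparagine synthetase ASNS, at 38.8, 37.6 and 39.7 CPM in the DMSO libraries and 47.01, 37.1 and 38.03 CPM in the idelalisib libraries, was not called.

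In the apoptosis lists, 4 of 15 BCL2 family genes were higher and 5 lower (median -0.072), and 6 of 25 death receptor and caspase genes were higher and 4 lower (median 0.017). MCL1, a survival protein, was at 510.0, 489 and 471 CPM in the DMSO libraries and 744, 758 and 633 CPM in the idelalisib libraries, higher in each idelalisib library (0.54), and BCL2 rose slightly (0.17). BMF, which opposes both, was at 183, 171 and 169.5 CPM in the DMSO libraries and 300.1, 297 and 297 CPM in the idelalisib libraries (log2 fold change 0.77, SE 0.042, adjusted p = 2.00e-07), and the effector BAX fell (-0.64). BCL2L11, which codes for BIM, was at 18.9, 17.1 and 7.03 CPM in the DMSO libraries and 31.0, 28.7 and 27.7 CPM in the idelalisib libraries. All idelalisib libraries were above all DMSO libraries, but DMSO library 87 was far below the others and the gene was not called (adjusted p = 0.112). RIPK3, a necroptosis kinase, CASP10 and CASP6 rose (1.32, 1.25 and 1.005), and the decoy receptor TNFRSF10D fell (-2.50). Lysosome and autophagy genes had 22 of 50 lower and 13 higher (median -0.16), from the sterol carrier NPC2 at -1.46 to the protease CTSZ at 1.16.

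Of 11 glucuronosyltransferase genes 3 were higher and 1 lower (median -0.12), and of 12 drug oxidation and efflux genes 5 were higher and 1 lower (median 0.34). UGT2B17, a glucuronosyltransferase of androgens, was at 13.4, 14.9 and 13.1 CPM in the DMSO libraries and 49.9, 50.1 and 48.9 CPM in the idelalisib libraries (log2 fold change 1.85, SE 0.065, adjusted p = 1.14e-08). UGT2B15, a close copy that may share reads with it, rose by 1.34. CYP1B1, an oxidase controlled by the aryl hydrocarbon receptor, was at 38.8, 39.5 and 39.1 CPM in the DMSO libraries and 105, 107 and 115 CPM in the idelalisib libraries. It was more than 2-fold higher in each idelalisib library (1.48), with CYP1A1 at 0.65 (a call lost in the fit on all 36 libraries) and the receptor gene AHR at 0.18. In all, 5 of 10 AHR targets were higher and 2 lower (median 0.43).

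The protein-coding genes with the largest changes were mostly of low level. OR2I1P, an olfactory receptor locus in the MHC region (chromosome 6, 29550407 to 29557773), was at 2.79, 2.32 and 2.73 CPM in the DMSO libraries and 44.1, 65.1 and 58.5 CPM in the idelalisib libraries. That was the largest rise (log2 fold change 4.42, SE 0.15, adjusted p = 1.14e-08), and with ibrutinib the libraries were at 9.26, 8.84 and 7.66 CPM and with fludarabine at 231.8, 228 and 256 CPM. ACKR1, a decoy receptor for chemokines, was at 0.323, 0.311 and 0.716 CPM in the DMSO libraries and 9.06, 9.37 and 8.92 CPM in the idelalisib libraries, and MYO18B, an unconventional myosin, at 0.265, 0.239 and 0.134 CPM in the DMSO libraries and 4.36, 3.86 and 3.92 CPM in the idelalisib libraries. They rose by 4.31 and 4.25, and SLC9A9, an endosomal proton exchanger, by 3.01. Further rises were PXDNL (3.41), the keratin KRT16 (3.04), the VEGF receptor FLT1 (3.02), the ghrelin gene GHRL (3.03), SERPINB8 (2.94), FAM129C (2.80), ZNF41 (2.79) and the RNA-binding protein IGF2BP3 (2.84, or 3.48 without DMSO library 85). Besides mitotic genes and GDF15, the largest falls held NEURL1B, a ligase of the Notch pathway, at 5.41, 3.80 and 5.62 CPM in the DMSO libraries and 0.239, 0.435 and 0.369 CPM in the idelalisib libraries (log2 fold change -3.81, SE 0.25, adjusted p = 7.54e-07). The natriuretic peptide receptor NPR1 fell by 3.05, the Notch-family repressor HES2 by 3.48 and LGALS9B, a galectin copy, by 4.41 on the log2 scale. The last 2 rested on near-zero idelalisib values, and without the second or the third idelalisib library, in order of number, the LGALS9B value was -9.31 or -3.72, and without the third that of HES2 was -4.16. HES2 missed the threshold with limma-voom (adjusted p = 0.194).

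By difference in mean CPM, the homeobox factor PRRX1, known from mesenchymal tissue, stood out among the rises, at 639, 647 and 635 CPM in the DMSO libraries and 1708, 1707 and 1762 CPM in the idelalisib libraries, with the groups apart (log2 fold change 1.43, SE 0.056, adjusted p = 2.09e-08). AHNAK, a giant scaffold protein, and ACTB, beta-actin, rose by 0.68 and 0.70, ACTB with DMSO values of 3968, 3670.3 and 2741 CPM. TMSB4X, which sequesters actin, was at 3389.5, 3423 and 3340.5 CPM in the DMSO libraries and 2142, 2158 and 2119 CPM in the idelalisib libraries, lower (-0.66). The collagen gene COL1A1 was at 4.32, 5.33 and 4.68 CPM in the DMSO libraries and 19.5, 24.6 and 20.4 CPM in the idelalisib libraries (2.17) and SMAD3, which transmits TGF-beta signals, at 89.2, 84.9 and 85.7 CPM in the DMSO libraries and 221, 236 and 228 CPM in the idelalisib libraries (1.40). Of the very abundant noncoding RNAs, RN7SL2, a multi-copy signal recognition particle RNA, was lower (-0.29) and RPPH1, the RNase P RNA, higher (0.28), both calls being lost in the fit on all 36 libraries. Among gene families, 81 of 255 solute carriers were higher and 45 lower (median 0.23), and 21 of 49 tripartite motif genes were higher and 9 lower (median 0.32).

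Set against ibrutinib within the same library series, idelalisib had 1437 genes higher (8.21%) and 1845 lower (10.5%), at doses that differ. With 1 library left out the counts were 867 to 1092 higher and 1346 to 1641 lower. All 55 mitosis genes (median -1.45), 41 of 50 replication genes (median -0.84), 57 of 70 histone genes (median -1.11) and 20 of 24 glycolysis genes (median -0.67) were lower with idelalisib than with ibrutinib, and none of these was higher. NEK2 was at 15.7, 14.7 and 15.5 CPM with ibrutinib, a log2 difference of -1.99 for idelalisib against ibrutinib (adjusted p = 8.88e-07), and GAPDH was at 4251, 3952 and 3591 CPM (-0.80). CYP1B1 was at 51.4, 49.3 and 51.5 CPM with ibrutinib, below idelalisib (1.10, adjusted p = 2.19e-07). JUN (1.16), IL2RA (1.47), KLF2 (1.46) and BACH2 (1.596) were also higher with idelalisib than with ibrutinib.

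For other lists the difference between the inhibitors was smaller. Of 44 interferon-stimulated genes 6 were higher and 8 lower with idelalisib than with ibrutinib (median 0.015), of 22 immediate early genes 2 were higher and 5 lower (median -0.0038), and of 13 mitochondrially encoded protein genes 2 were higher and none lower (median 0.28), with shares of counts that did not overlap between the inhibitors. The 2 mitochondrial ribosomal RNA genes, outside that list, differed more, with a median of 1.72 for idelalisib against ibrutinib. For IFIT3 the difference was -0.0044 (adjusted p = 0.982). With ibrutinib against DMSO, where 14.5% of genes were higher and 15% lower, 32 of the 44 interferon-stimulated genes were higher and 1 lower, 46 of 55 mitosis genes were lower (median -0.75), and 42 of 79 ribosomal protein genes were lower. Replication genes took another direction there, 17 of 50 higher and 8 lower, with MCM3 at 99.3, 103 and 90.0 CPM. The 2 drug comparisons share the DMSO libraries, so their values are given side by side only. For lists that differed from DMSO with both inhibitors, drug and library series cannot be told apart.

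**Figure D2:**
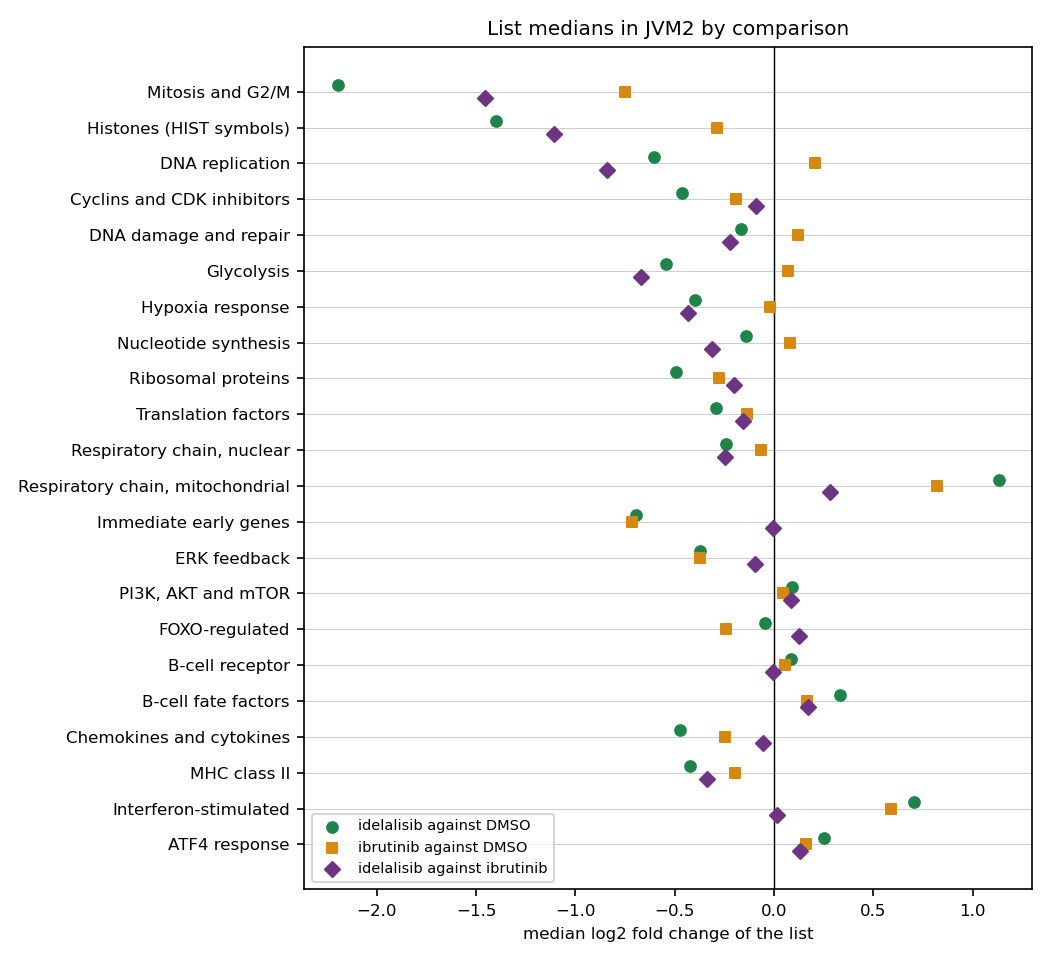
Median log2 fold change of 22 gene lists in JVM2 for idelalisib against DMSO (circles), ibrutinib against DMSO (squares) and idelalisib against ibrutinib (diamonds). Mitosis, histone, replication and glycolysis lists lie well below zero against both references, while the interferon-stimulated list stands at 0.70 against DMSO and 0.015 against ibrutinib.

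Finally the effect of idelalisib in JVM2 was set against that in the other lines by an interaction term. The effect differed from that in MEC1 for 6702 of 18017 genes (37.2%) and from that in EHEB for 4173 of 18047 (23.1%). The lines were exposed for different times, which cannot be separated from the line in these tests. In MEC1 and EHEB the DMSO and idelalisib libraries also carried numbers of different series. Drug and library series therefore cannot be told apart within any of these lines. For the mitosis list the medians were -2.20 in JVM2, -0.39 in MEC1 and -1.64 in EHEB, and the interaction was called for 54 of 55 genes against MEC1 and for 28 against EHEB. NEK2 had a log2 fold change of -0.29 in MEC1 and -2.24 in EHEB, both weaker than in JVM2 (interaction adjusted p = 1.83e-08 and 3.43e-04). Histone genes had a median of 0.68 in MEC1 and -1.57 in EHEB, and HIST1H3B was at 0.66 and -2.55. Ribosomal protein genes followed the same division, at 0.60 in MEC1 and -0.41 in EHEB, with the interaction called for 74 of 79 genes against MEC1 and 9 against EHEB.

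The glycolysis median was below zero in each line, at -0.54, -0.60 and -1.20 in JVM2, MEC1 and EHEB. Interferon-stimulated genes were at 0.70 in JVM2 and 0.88 in MEC1 but -0.45 in EHEB, where the interaction was called for 36 of 44 genes. SAMD9 was at 1.81 in MEC1 and 0.022 in EHEB. ATF4 genes separated JVM2 from MEC1, with medians of 0.25 and -1.41 and the interaction called for 30 of 34. CHAC1 rose in JVM2 (1.15) and stood at -2.48 in MEC1 (interaction adjusted p = 2.81e-06). Mitochondrially encoded genes had medians of 1.19 in MEC1 and 0.77 in EHEB, with the interaction called for 1 and 3 of 13 genes.

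**Figure D3:**
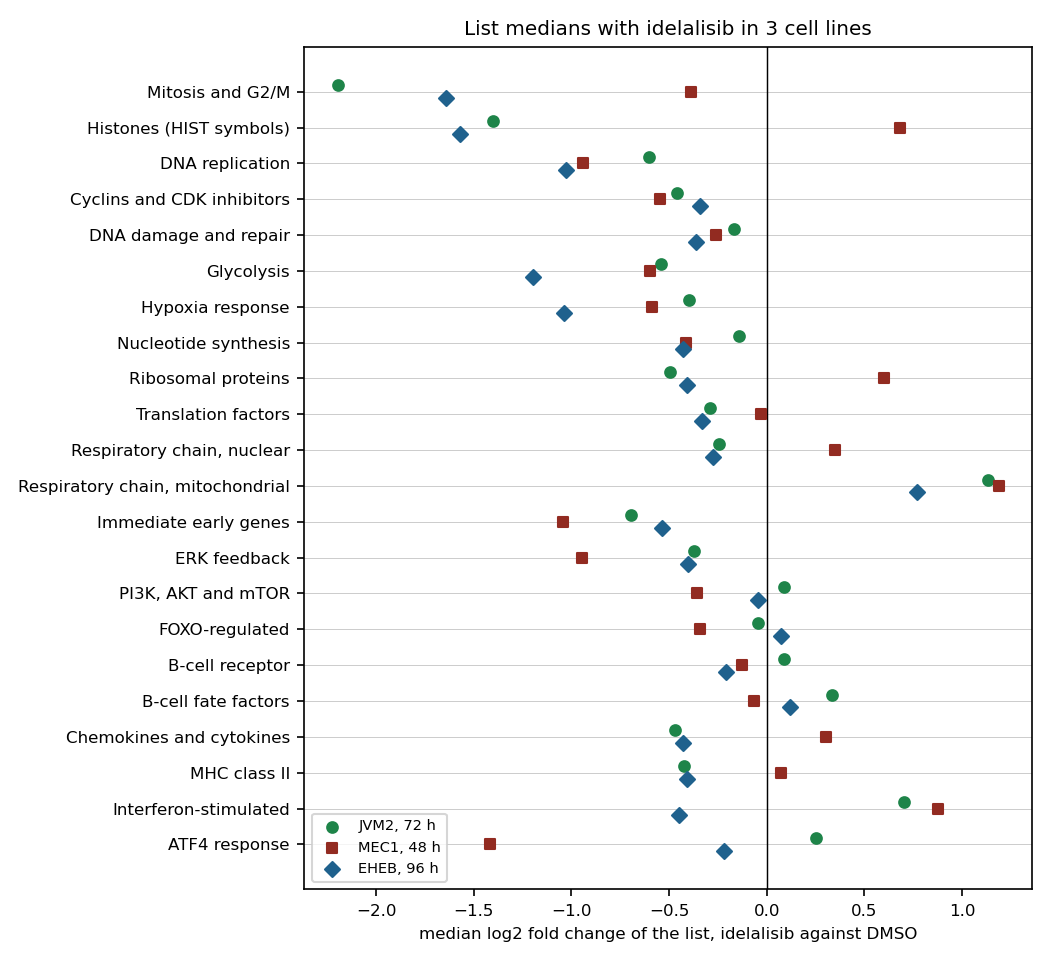
Median log2 fold change of 22 gene lists for idelalisib against DMSO in JVM2 (72 h, circles), MEC1 (48 h, squares) and EHEB (96 h, diamonds). Glycolysis, hypoxia and immediate early lists lie below zero in all 3 lines, histone and ribosomal protein lists lie above zero in MEC1 only, and the interferon-stimulated list lies below zero in EHEB only.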

How the data were processed

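Total RNA of the exposed cells was sequenced, with 3 libraries a group. Per the submitters' processing notes and the study's methods, the authors trimmed reads with Trimmomatic, aligned them to hg38 with HISAT2 2.1, assembled and counted transcripts with StringTie 1.3.4 and used edgeR 3.22.5. The deposited gene table holds estimated counts written as whole numbers, and 38.2% of the counts from 1 to 20 fall at 3, 6, 8, 11, 14, 16 or 19, near multiples of 8/3, so a count need not be 1 read. A line without a gene name took 0.00366 to 0.00511% of the counts of the 6 libraries and was left out. Symbols were matched to GENCODE release 44, 36547 by current and 861 by older symbols, with 141 unmatched.

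Counts were fitted with edgeR 4.0.16 (R 4.3.3): filterByExpr, TMM scaling, group as the only term over the 12 JVM2 libraries, the quasi-likelihood F-test and Benjamini-Hochberg adjustment over all 17508 genes, with a threshold of 0.05. CPM values are TMM-normalised, and shares of counts are of each library's total. Interactions used the idelalisib and DMSO libraries of JVM2 and 1 other line. The comparisons, gene lists and genes were chosen with earlier results of these data known. Named genes were those of fixed ranks among called genes whose average log2 CPM was 1 or more and whose groups did not overlap (15 each way among protein-coding genes, 10 each way by difference in CPM, 4 each way in a list, 5 each way with opposite signs in both other lines) and a set named whatever its values. Some items are not reported here. The rank for opposite signs was not bound to the CPM minimum, so TENT5C, TUBA8, HSPA7 and SNORD68 come from genes of low level. The fits were run on simulated data with 200 changed genes, raised and lowered in balance. Far more genes were called in the real data, so that run cannot show how the scaling acts on them. Libraries of a group correlated at 0.975 or more and differed by more than counting error (chi-square per degree of freedom from 28.5). Alternatives were DESeq2 1.42.0, limma-voom (limma 3.58.1), other scaling, filters and sets of libraries, each library left out, and counts divided by 8/3, the last chosen after seeing the data.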

Additional observations from a re-analysis of the deposited data

Results flagged for a closer look

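The idelalisib effect differed between lines, by an interaction term in edgeR, for 6702 genes between JVM2 and MEC1 and for 4173 genes between JVM2 and EHEB. Genes of opposite sign in both other lines were ranked by the smallest of their absolute log2 fold changes in the 3 lines, and 5 each way follow. The effect in the other lines did not have to be called. Values are the log2 fold change in JVM2 minus that in the other line. The tryptophanyl-tRNA synthetase WARS differed by 2.20 from MEC1 and 1.65 from EHEB, and the interferon-induced apolipoprotein APOL6 by 2.63 and 2.25. APOL6 was at 30.9, 24.2 and 24.3 CPM in the DMSO libraries and 56.9, 57.7 and 63.6 CPM in the idelalisib libraries in JVM2. TNS3, a focal adhesion protein, differed by 5.5 and 3.16, and TUBA8, an alpha-tubulin at under 1 CPM in each JVM2 library, by 4.98 and 4.55. TENT5C, a poly(A) polymerase, differed by 4.11 and 3.33, with 1 DMSO library of JVM2 at 0. In the other direction, the zinc finger gene ZNF546 differed by -2.26 and -2.41, the phospholipase PLA2G2D by -2.97 and -2.65 and the growth factor GAS6 by -2.3 and -2.08. GAS6 was at 17.0, 14.4 and 15.8 CPM in the DMSO libraries and 9.38, 7.29 and 8.21 CPM in the idelalisib libraries in JVM2. HSPA7, a heat shock pseudogene close in sequence to a coding gene, differed by -4.47 and -5.03, and the small nucleolar RNA SNORD68 by -3.55 and -5.22, both at under 1 CPM in JVM2. In all, 328 of the 3779 genes called higher in JVM2 and 160 of the 3960 called lower had the opposite sign in both other lines with both interactions called. Only the sign counted, so small effects in the other lines are included. The JVM2 calls of TENT5C and TUBA8 were each lost in 2 of 13 alternative settings, that of SNORD68 in 4 of 13 and that of ZNF546 in 6 of 14. Exposure time cannot be separated from the line.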

How the results depend on the processing

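Across 15 alternatives, idelalisib against DMSO gave 3167 to 4651 higher and 3166 to 4166 lower genes, and every gene called both ways had the same sign (7706 shared with DESeq2, 6945 without TMM, 6569 in a fit on all 36 libraries). Without TMM the split was 4651 higher and 3166 lower. Leaving out 1 library gave 3252 to 3498 higher and 3459 to 3734 lower. Against ibrutinib the count of higher genes was 1437 and ranged from 867 (without the third idelalisib library) to 1092 when 1 library was left out, and was 933 without the second ibrutinib library. Fewer libraries are fitted in these settings. Of 264 genes followed, 230 kept their direction and side of the threshold in every alternative, 24 lost the call at least once, 5 gained it and 5 changed sign. The 5 that changed sign were never called. PIK3CB became 0.070 without TMM, 0.016 with upper-quartile factors, 0.011 with a mean CPM of 5 or more and -0.069 to 0.023 without 1 library. FOXO1 became 0.030 and FOXO3 0.0058 without TMM, S1PR1 ranged from -0.014 (without DMSO library 86) to 0.73 and ASNS from -0.029 (without the first idelalisib library) to 0.15 without 1 library. The 5 gains were CDKN1A, PIK3R1, BCL2L11, MYC and PIK3IP1. In the fit on all 36 libraries IGHM lost its call, with an adjusted p of 0.501, and the cause was not tested. List medians near zero turned with the scaling, for example proteasome subunits from -0.038 to 0.064 and the BCL2 family from -0.072 to 0.019 without TMM. No paired analysis was possible because the groups compared share no replicate numbers. Depth ranged from 35479702 to 50986778 counts in the 6 libraries compared, and genes below about 1 CPM rest on few counts.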
